A study of Homo sapiens with 4 samples.

Results

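The genes described are 10 members of the thioredoxin system, measured in H1299 cells, an established human lung carcinoma line: the thioredoxin reductases TXNRD1, TXNRD2 and TXNRD3, the thioredoxins TXN and TXN2, the peroxiredoxins PRDX1, PRDX3 and PRDX6, the sulfiredoxin SRXN1 and the thioredoxin inhibitor TXNIP. They were taken by gene symbol from the 61541 gene rows of each count table, and all 10 symbols matched a single row. Polyadenylated RNA came from cells given PBS (phosphate-buffered saline, the control) and from cells given ginseng nanoparticles, with 2 libraries per group. Both groups are the same line in the same medium with fetal bovine serum, and the labels give no dose, exposure time or plant part. Titles of the libraries labelled as ginseng nanoparticle contain the word control too, and grouping followed the treatment label. Since no label states that replicates are separate cultures, p-values reflect only how far these 4 libraries scatter, and that scatter may be technical. The members were chosen by family around TXNRD1, which was itself selected on its higher level with nanoparticles in these same libraries. Their values in that contrast are therefore given as a description, with no p-value attached.

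Thioredoxin is a small protein that reduces disulfide bonds in other proteins and becomes oxidised in doing so. Thioredoxin reductase, a selenoprotein, restores it with electrons from NADPH, and peroxiredoxins use reduced thioredoxin to remove hydrogen peroxide. The system exists in a cytosolic and a mitochondrial form, and in lung cancer cells it is known as part of the defence against oxidants that the transcription factor NRF2 controls through antioxidant response elements in its target genes.

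The feature that the 3 reductases share is written in their last codons. The end of each reading frame is shown because a TGA codon, in capitals, lies inside it and is read as selenocysteine in place of a stop. The sequences are those of the principal GENCODE 29 transcripts (GRCh38), 42 bases each, 5′ to 3′ on the coding strand, ending with the stop codon.
TXNRD1, chr12:104348380-104348421, plus strand: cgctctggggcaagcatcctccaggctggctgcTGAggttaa
TXNRD2, chr22:19877105-19877146, minus strand: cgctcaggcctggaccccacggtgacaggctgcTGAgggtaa
TXNRD3, chr3:126607905-126607946, minus strand: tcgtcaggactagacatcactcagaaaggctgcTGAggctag
In each of the 3 reading frames there was 1 in-frame TGA before the stop codon, 2 codons from the end of the frame. Such transcripts depend on the selenocysteine machinery for a complete enzyme, so the genes of that machinery are described further on.

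TXNRD1, the cytosolic reductase, was the member with the clear difference between groups. It lies on chromosome 12 from 104215779 to 104350305 on the plus strand, with 24 annotated transcripts. Its level was 559.9 and 585 CPM (counts scaled by library size with TMM) with PBS and 755 and 757 CPM with nanoparticles. Both nanoparticle libraries were above both PBS libraries, and they differed from each other by less than the PBS pair did. The means were 572 ± 17.6 and 756 ± 1.56 CPM (SD, n = 2 in each group). This is a 1.32-fold difference, or 0.40 on the log2 scale (SE 0.026). TXNRD1 rose by the criterion applied to the whole table, an adjusted p of at most 0.05 in edgeR's quasi-likelihood test with Benjamini-Hochberg adjustment. Of the 9 members that could be tested, TXNRD1 was the 1 that passed, against 2.58% of all 15778 tested genes of which 1.75% passed as higher and 0.83% as lower. Since this contrast led to the choice of the members, nothing is read from that count. Without PBS replicate 1 its log2 fold change was 0.37 and without PBS replicate 2 it was 0.43, and it passed in neither case. Nor did it pass without a low-count filter, at a log2 fold change of 0.41, and in these 3 fits no gene of the table passed. As this is bulk RNA, a rise in every cell and a larger rise in some cells cannot be told apart, nor can fewer cells of a kind and less RNA per cell.

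**Figure D1:**
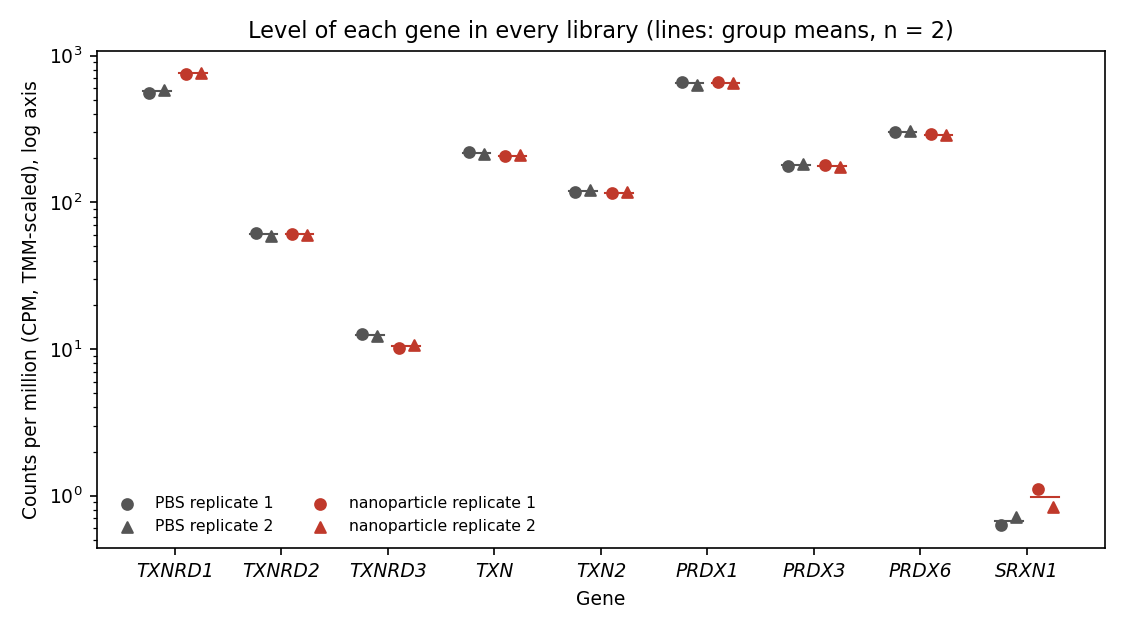
The plot gives the TMM-scaled CPM (log axis) of 9 genes in each of the 4 libraries, with circles for replicate 1, triangles for replicate 2 and a line at each group mean. TXNRD1 stands at 755 and 757 CPM in the nanoparticle libraries against 559.9 and 585 in PBS, while the group means of the other genes at above 50 CPM lie closer together.

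RefSeq's promoter table (GRCh38.p14) holds 2 start regions for TXNRD1, and both are shown because each contains the core letters of an antioxidant response element, TGACNNNGC. The search covered both strands, and capitals mark each match, with a match on the minus strand appearing in its reverse complement. The first region is given from 250 bases before the start to the start itself. Exons of 6 annotated TXNRD1 transcripts that begin farther upstream lie over the match in the second region, so it is shown with 10 bases on each side.
TXNRD1 start 1, chr12:104215529-104215779, plus strand: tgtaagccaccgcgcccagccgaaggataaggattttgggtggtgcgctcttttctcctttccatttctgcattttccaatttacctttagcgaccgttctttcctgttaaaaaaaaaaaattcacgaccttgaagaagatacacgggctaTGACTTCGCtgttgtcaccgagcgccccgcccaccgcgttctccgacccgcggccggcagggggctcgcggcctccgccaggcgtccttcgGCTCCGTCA
TXNRD1 start 2, chr12:104286920-104286948, plus strand: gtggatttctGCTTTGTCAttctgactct
The first start region had 2 matches, and the second had 1, which begins 102 bases before its start site at 104287032. The same letters occur in 13.3% of the 35116 promoter windows of 300 bases in that table (250 before and 50 after the start), so a match by itself is common. No match was found in the windows of TXNRD2, TXNRD3, TXN, TXNIP, SRXN1 and PRDX3, which says only that these letters are not in those windows, and TXN2, PRDX1 and PRDX6 were not among the entries used. The counts are per gene, so they do not say from which start the TXNRD1 transcripts began.

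The other reductases did not follow TXNRD1. TXNRD2, the mitochondrial reductase on chromosome 22 (19875517 to 19941992), had 62.0 and 59.3 CPM with PBS and 61.1 and 59.7 CPM with nanoparticles, so that the groups overlapped. Its log2 fold change was -0.0074 with a 95% interval of the edgeR fit from -0.10 to 0.088, an interval per gene without adjustment for the number of genes. TXNRD3, a reductase with an added glutaredoxin domain that is known mainly from testis, lies on chromosome 3 (126571779 to 126655155) and was the least abundant of the 3. It had 12.6 and 12.3 CPM with PBS against 10.1 and 10.7 CPM with nanoparticles. Both nanoparticle libraries were lower, with a log2 fold change of -0.26 (SE 0.092, interval -0.45 to -0.069), and it did not pass the test. Non-overlapping groups alone are frequent with 2 libraries a side, being found for 46.9% of tested genes (23.7% with nanoparticles higher and 23.2% lower).

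Relative to transcript length the reductases kept a steep order. In CPM per kilobase of the principal transcript, TXNRD1 was at 146 ± 4.47 with PBS and 192 ± 0.398 with nanoparticles (SD, n = 2). TXNRD2 was at 28.7 ± 0.904 and 28.5 ± 0.482, and TXNRD3 at 6.47 ± 0.103 and 5.40 ± 0.223, in the same unit and order. Thus TXNRD1 made up 79.9% and 81.2% of the summed reductase level with PBS and 84.9% and 85.1% with nanoparticles. With the union of exons as length these shares were 88.6% and 89.4% with PBS and 91.9% in each nanoparticle library. The principal TXNRD3 model of 1932 bases consists of the reading frame alone, so its level per kilobase is too high to the extent that reads came from untranslated parts.

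The thioredoxins, which the reductases serve, did not pass the test in either compartment. TXN, the cytosolic protein on chromosome 9 (110243811 to 110256640), had 219.7 and 215 CPM with PBS and 208 and 209 CPM with nanoparticles. The nanoparticle libraries lay slightly below both PBS libraries, with a log2 fold change of -0.061 and an interval from -0.13 to 0.0063. TXN2, the mitochondrial protein on chromosome 22 (36467036 to 36482030), had 117.4 and 121.1 CPM with PBS and 115.8 and 116.9 CPM with nanoparticles. Both nanoparticle libraries were slightly lower, with a log2 fold change of -0.035 and an interval from -0.11 to 0.040. The ratio of TXN to TXNRD1, both in CPM per kilobase, was 1.77 and 1.66 with PBS and 1.25 in each nanoparticle library. For the mitochondrial pair, TXN2 to TXNRD2, the ratio was 2.31 and 2.49 with PBS and 2.31 and 2.39 with nanoparticles, and the groups overlapped. These ratios depend on the length used. With the union of exons TXN to TXNRD1 was 2.30 and 2.16 with PBS and 1.62 in each nanoparticle library, and TXN2 to TXNRD2 ran from 7.73 to 8.34 over the 4 libraries. These are ratios of transcript levels and not of proteins.

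None of the 3 member peroxiredoxins, most of which spend reduced thioredoxin as peroxidases, passed the test, which 2.58% of all tested genes did. PRDX1, the major cytosolic form on chromosome 1 (45511036 to 45523047), was at 658 and 633 CPM with PBS, where it was the most abundant member, and at 660.3 and 649 CPM with nanoparticles, where TXNRD1 was above it in CPM (log2 fold change 0.021, interval -0.034 to 0.075). The groups overlapped. Of its exon bases 24.9% are also exon of MMACHC on the opposite strand, and no source used here states whether the counting used strand. PRDX3, the mitochondrial form on chromosome 10 (119167703 to 119178833), ranged from 174 to 181 CPM over the 4 libraries (log2 fold change -0.022, interval -0.093 to 0.048). PRDX6, a peroxiredoxin with a single catalytic cysteine that relies on glutathione in place of thioredoxin, lies on chromosome 1 (173477266 to 173488807). It had 303 and 304 CPM with PBS and 293 and 286 CPM with nanoparticles, and both nanoparticle libraries were lower. Its log2 fold change was -0.069 with an interval from -0.13 to -0.0056, and it did not pass once all genes were adjusted for.

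**Figure D2:**
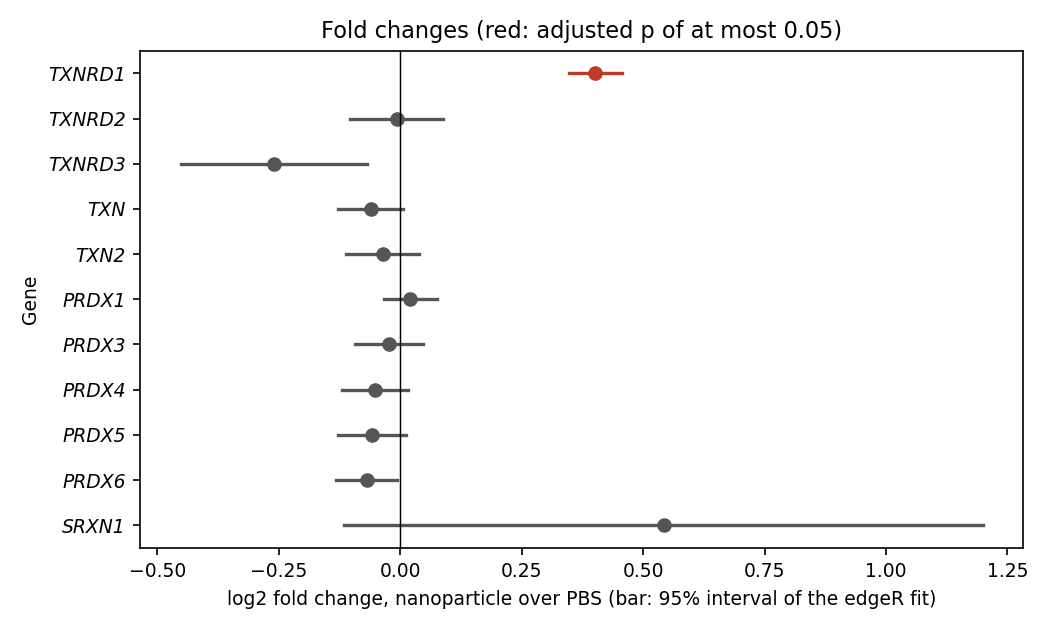
Each point is the log2 fold change of nanoparticle over PBS from the edgeR fit and each bar its 95% interval, for 9 members and for PRDX4 and PRDX5. TXNRD1 at 0.40 is the gene past the adjusted threshold, SRXN1 has the widest interval (-0.11 to 1.20), TXNRD3 is at -0.26, and the remaining genes lie between -0.069 and 0.021.

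Of the other 3 peroxiredoxins, which were not chosen as members, 2 could be tested and neither passed, against 2.58% of all tested genes. PRDX4, the form of the endoplasmic reticulum, had 178 CPM in each PBS library and 173 and 171 CPM with nanoparticles (log2 fold change -0.052, SE 0.033, edgeR adjusted p = 0.464). PRDX5, found in mitochondria, peroxisomes and cytosol, had 224 and 215 CPM against 209.6 and 212 CPM (log2 fold change -0.058, SE 0.033, edgeR adjusted p = 0.404). PRDX2, a cytosolic form, was listed with 1 count in each PBS library and 2 in each nanoparticle library and was too low for a test. Whether so low a count is the level in the cells or a result of the counting could not be checked.

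SRXN1 and TXNIP were the members with too few counts to describe a change. SRXN1, which repairs over-oxidised peroxiredoxins and is known as a target of NRF2, is on chromosome 20 (646615 to 653370). It had 14 and 16 counts with PBS and 28 and 21 with nanoparticles, or 0.629 and 0.716 CPM against 1.12 and 0.844 CPM. Both nanoparticle libraries were higher, with a log2 fold change of 0.54 (SE 0.32) and an interval from -0.11 to 1.20, and SRXN1 did not pass. Without nanoparticle replicate 1 its log2 fold change was 0.33 and without nanoparticle replicate 2 it was 0.73. Of the 2698 exon bases of SRXN1, 2292 (85.0%) are also exon of a second gene model on the same strand, AL121758.1, which is listed at 0 in all 4 libraries. The deposited files set aside reads that fit more than 1 gene in a row of their own, which held 4.78% to 4.81% of reads per library. If the annotation used for counting has both models as GENCODE 29 does, only reads on the other 406 bases stayed with SRXN1, so its level may be too low. How many of the reads set aside came from SRXN1 is not in the counts.

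TXNIP, the arrestin-like protein that binds and inhibits thioredoxin and that responds to glucose, was listed at 0 in all 4 libraries. Over 94551962 counts on genes, a count of 0 allows a level of up to 0.032 CPM (3 counts, counting error only). Its gene on chromosome 1 (145992435 to 145996600) shares no exon base with another gene in GENCODE 29. Of 9 other protein-coding genes within 100 kilobases of it, 7 had from 43 to 2327 counts per library. The other two, named after their values were seen, were AC243547.3 at 0 in all 4 libraries and HJV with 1 count in 1 library. No fold is given for TXNIP, and whether the value of 0 is the level in the cells or a result of the counting was not tested. ARRDC4, a related arrestin that is induced by the same glucose-sensing factors, had 17 counts in each PBS library and 11 and 22 in the nanoparticle libraries.

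Reads of PRDX1, PRDX3, TXN and TXN2 can be shared with processed pseudogenes. The count tables list 13 such pseudogenes, of which 4 had any count, and the highest count in a library was 2. Reads that fit a gene and its pseudogene equally may have been set aside as not unique, which made up 3.51% to 4.75% of reads per library, so the levels of these genes may be too low. Within the span of TXNRD1 lie EID3, the pseudogene RPL18AP3 and the antisense gene AC089983.1, none of which shares an exon base with it. EID3 had 102 and 131 counts with PBS and 145 and 157 with nanoparticles, against 12456 to 18869 for TXNRD1.

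Among all members the order of levels per kilobase over the 4 libraries was PRDX1 (527 ± 9.98 CPM per kilobase, SD over 4 libraries), TXN (245 ± 6.34), PRDX6 (169 ± 4.95), TXNRD1 (169 ± 27.1), PRDX3 (112 ± 1.91), TXN2 (67.9 ± 1.31), TXNRD2 (28.6 ± 0.598), TXNRD3 (5.93 ± 0.633) and SRXN1 (0.307 ± 0.079). PRDX6 and TXNRD1 were the neighbours whose ranges overlapped. With PBS TXNRD1 lay below PRDX6 and with nanoparticles above it, at 146 against 173 and 192 against 165 CPM per kilobase. The ranges of the other neighbours did not overlap. For SRXN1 the length was all 2698 bases, so its level is too low if only 406 of them kept reads. With the union of exons as length PRDX3 and TXN2 changed places, at 52.1 and 57.5 CPM per kilobase.

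The wider pathway was described by 7 gene lists with 58 genes, of which 54 could be tested. None of the 54 passed in edgeR's test, against 2.58% of all genes. An unadjusted p under 0.05 was found for 8 of the 54, against 2648 of all 15778 tested genes. DESeq2's Wald test, which gave an adjusted p for 44 of these genes, and limma-voom also called none. Genes of the lists at an unadjusted p under 0.05 were 3 with DESeq2 and 8 with limma-voom. The table had 942 with DESeq2, which gave an adjusted p for 8436 genes, and 2667 with limma-voom, which tested 15778. The median log2 fold change of the 54 genes was -0.013, against 0.00056 for all 15778 tested genes and -0.022 for the 9 tested members. Values below 0 were found for 33 of the 54 genes, 7856 of the 15778 and 6 of the 9 members.

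GSR, the glutathione reductase, came closest. It had 105 and 104 CPM with PBS and 117 and 112 CPM with nanoparticles, a log2 fold change of 0.13 (SE 0.037, edgeR adjusted p = 0.0733). It passed under 2 of 14 alternatives, and its adjusted p over them ran from 0.0478 to 0.545. GPX4, the selenoprotein that reduces lipid peroxides and is second by p in its list, had 299 and 303 CPM with PBS and 284 and 277 CPM with nanoparticles (log2 fold change -0.10, edgeR adjusted p = 0.0866). GPX1, another glutathione peroxidase, was listed with 1 to 5 counts and GPX7 with at most 1, and both were too low for a test. For GPX1, too, it could not be checked whether the count is the level in the cells or a result of the counting.

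Of 10 thioredoxin-like proteins none passed. As 2.58% of all tested genes passed, nothing is read from the lack of a pass in lists this short. The smallest p-values belonged to the membrane-bound oxidoreductases TMX3 (log2 fold change 0.13, SE 0.042, edgeR adjusted p = 0.0938) and TMX1 (0.11, SE 0.041, adjusted p = 0.155). Of 9 clients and partners of thioredoxin none passed. APEX1, a DNA repair enzyme whose redox function thioredoxin supports, had a log2 fold change of -0.077 (edgeR adjusted p = 0.248), and MSRB1, a methionine sulfoxide reductase, 0.13 (adjusted p = 0.305). The ribonucleotide reductase subunits RRM1 and RRM2, which thioredoxin helps to recycle, had log2 fold changes of 0.0076 and -0.0027. Of the 7 relatives and regulators of TXNIP none passed, with MLXIP, the glucose-sensing factor MondoA, at 0.077 (edgeR adjusted p = 0.303) and the adaptor ARRDC1 at -0.099 (adjusted p = 0.503).

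None of the 9 genes of the selenocysteine machinery, which all 3 reductases need, passed, against 2.58% of all genes. Their log2 fold changes ran from -0.16 to 0.083. EEFSEC, the elongation factor that delivers selenocysteine to the ribosome, had -0.16 (SE 0.088, edgeR adjusted p = 0.395) and SEPSECS, which makes selenocysteine on its tRNA, -0.15 (SE 0.088, adjusted p = 0.411). Of the 14 other selenoproteins 12 could be tested and none passed. SELENOK, a protein of the endoplasmic reticulum, was second to GPX4 by p at 0.14 (SE 0.056, edgeR adjusted p = 0.189).

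**Figure D3:**
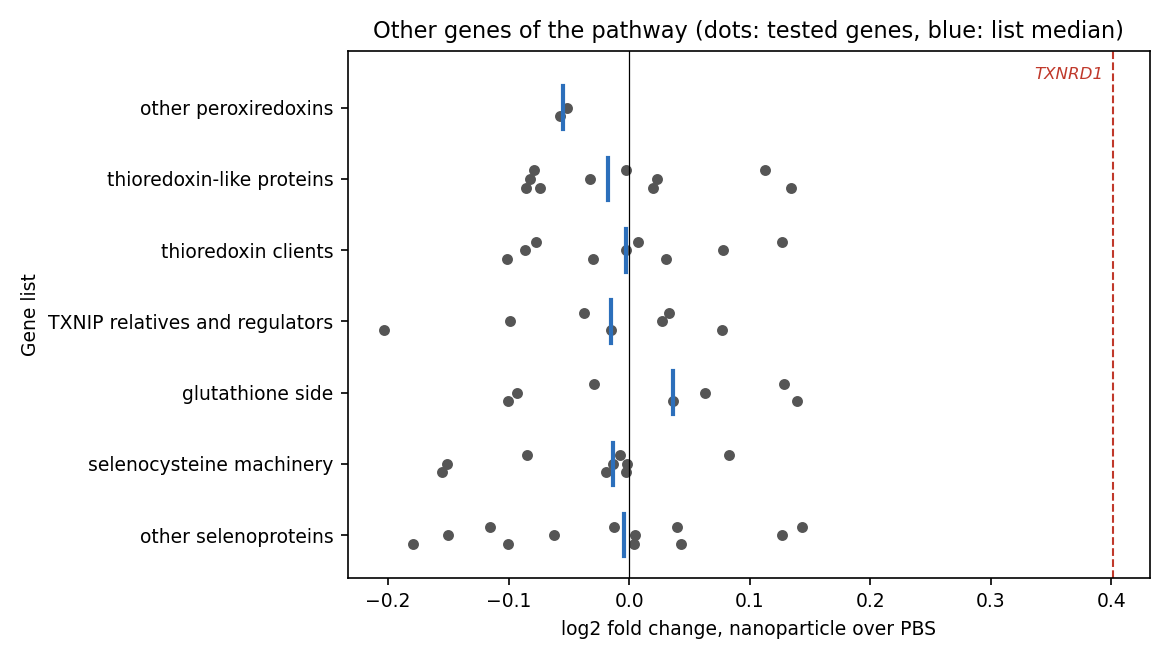
Dots are the log2 fold changes (nanoparticle over PBS) of the tested genes of 7 pathway lists, with the list median in blue and TXNRD1 as the dashed line at 0.40. The 54 genes lie between -0.20 and 0.14, all below TXNRD1.

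Fold changes in these libraries moved with transcript length, and the members have to be read beside that trend. Over genes of at least 5 CPM in 10 bins by length of the principal transcript, the median log2 fold change was -0.064 in the shortest bin and 0.082 in the longest. TXNRD1, with 3930 bases, belongs to the bin from 3824 to 4500 bases, whose median was 0.016. Once that trend was removed from every library, its log2 fold change was 0.38 and it passed. TXN, with 869 bases, was in the shortest bin, and without the trend its log2 fold change went from -0.061 to -0.00076. PRDX1, with 1234 bases in the same bin, moved away from 0, from 0.021 to 0.066, and did not pass. For TXNRD3 the log2 fold change was -0.24 after the removal.

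The genes whose pattern over the 4 libraries was most like that of TXNRD1 were of another kind. Likeness was the Euclidean distance between centred log2 CPM values over 5079 genes of at least 50 CPM, and the nearest were HERC2 (distance 0.031), FAT1 (0.065), KMT2A (0.079), SMG1 (0.090) and UBR4 (0.092). HERC2 and UBR4 are ubiquitin ligases, FAT1 is a giant cadherin, KMT2A a histone methyltransferase and SMG1 a kinase of RNA decay. Their log2 fold changes were 0.38, 0.37, 0.32, 0.36 and 0.33. Their principal transcripts have 13678 to 16115 bases and thus belong to the longest bin, unlike TXNRD1. The values were not divided by their spread, so the distance favours genes with a fold change of similar size and sets apart larger rises. With 4 points that share libraries and scaling, such likeness is a description.

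**Figure D4:**
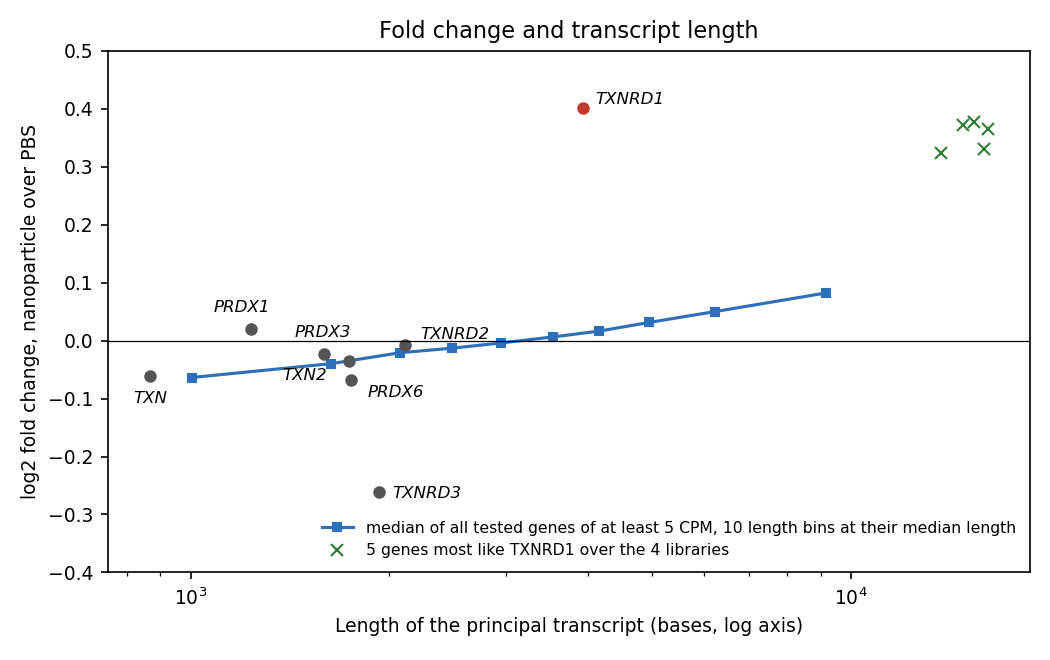
The log2 fold change (nanoparticle over PBS) is plotted against the length of the principal transcript in bases (log axis) for 8 members, for the 5 genes most like TXNRD1 (crosses) and as medians of all genes of at least 5 CPM in 10 length bins (blue). TXNRD1 lies at 0.40 where the bin median is 0.016, while TXN, TXN2, PRDX3 and TXNRD2 lie near the blue line.

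Among abundant transcripts the size of the TXNRD1 difference had few equals, which is again a description of the values that led to its choice. Of 2715 tested genes of at least 100 CPM 4 had a larger log2 fold change, GCLM, HMOX1, MT-CYB and MT-ND5, and of 238 genes of at least 500 CPM none had. MT-CYB and MT-ND5 are mitochondrially encoded. The share of such genes also differed within groups, at 0.31% and 0.43% with PBS and 0.37% and 0.51% with nanoparticles.

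Libraries held 22252686 to 24979081 counts on genes, and mitochondrially encoded genes took 0.31% to 0.51% of them, with overlapping groups. KRT8, KRT18 and VIM, which this line of epithelial origin with mesenchymal features is known to express, had 14265 to 55771 counts per library, and KRT7 161 to 175. KRT8, KRT18 and VIM were each called lower with nanoparticles in the same edgeR fit. Of 12 markers of leukocytes, endothelium, erythroid cells and fibroblasts none exceeded 21 counts in a library, and PTPRC and HBB were at 0 in all 4.

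**Figure D5:**
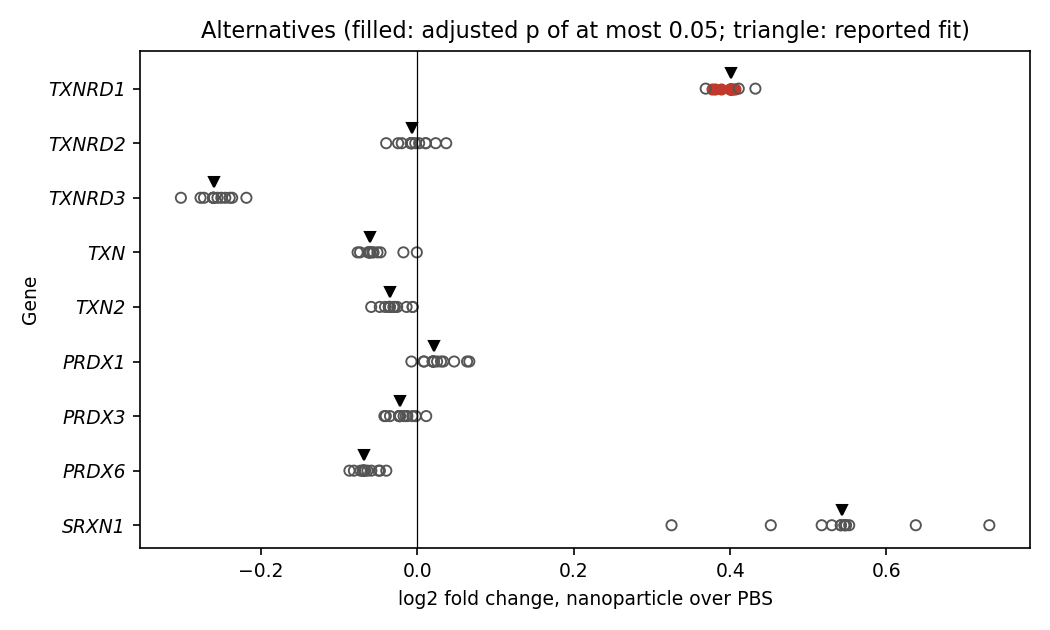
Each circle is the log2 fold change (nanoparticle over PBS) of a member under 1 alternative way of processing, filled where the adjusted p was at most 0.05, and the triangle is the reported value. TXNRD1 stays between 0.37 and 0.43 with filled and open circles, while no circle of another member is filled. All alternatives reuse the libraries on which TXNRD1 was selected, so this is a description.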

How the data were processed

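Each library has 1 deposited file of whole-number counts for Ensembl genes, not normalized. The submitters' processing notes name bcl2fastq 2.20, cutadapt 3.5, STAR 2.7.6a, Picard, HTSeq 2.0.2 and GRCh38. No source used here gives the annotation release or strand setting. Rows for reads given to no gene (13.7% to 14.8% of reads) were left out. Of 61541 rows, 61369 took their symbol from a gene name table. Positions and lengths came from GENCODE 29, which may not be the release used for counting, and 98.2% of tested genes had a length.

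Genes were filtered with filterByExpr, scaled by TMM and tested over the whole table with edgeR 4.0.16 in R 4.3.3 (glmQLFit, glmQLFTest). Tests were two-sided and Benjamini-Hochberg adjusted. The design had no block. Standard errors came from the coefficient and its F statistic. The estimated biological coefficient of variation was 2.46%. An exact permutation test of 2 against 2 cannot give a two-sided p below 0.33. Replicates differed beyond counting noise (chi-square per degree of freedom 1.86 and 2.04 in the PBS and nanoparticle pairs).

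The members and the gene lists were chosen with earlier results of these data known. Text names all members, the other peroxiredoxins, pathway genes that passed and otherwise the 2 with the smallest p of each list, the 5 genes most like TXNRD1, and pseudogenes and genes within TXNRD1. Other genes were named after their values were seen. Alternatives were RLE, upper-quartile and total-count scaling, other filters, DESeq2 1.42.0, limma-voom (limma 3.58.1), a replicate block, removal of length or length and GC trends (robust splines with 4 degrees of freedom, MASS 7.3.60.0.1), and leaving out each library. The procedure was also run on simulated counts with known fold changes, drawn independently for each library. That run cannot show how it behaves where replicates are technical. Figures used matplotlib 3.10.9.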

Additional observations from a re-analysis of the deposited data

How the results depend on the processing

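TXNRD1 kept its direction in all 14 alternatives, with a log2 fold change between 0.37 and 0.43, and passed in 11. The alternatives in which it did not pass were those without PBS replicate 1, without PBS replicate 2, and without a low-count filter (log2 0.41), and in those 3 the number of members and of all genes that passed was 0. Leaving out each library gave 0 to 200 called genes, against 407 in the reported fit, and 0 to 1 called members; without nanoparticle replicate 1 it was 200 genes and without nanoparticle replicate 2 it was 76. Called genes came to 121 with DESeq2, which gave an adjusted p for 8436 genes against 15778 in the reported fit. They came to 205 with the length trend removed (99 higher and 106 lower, against 276 and 131 reported) and 759 with the replicate block. Upper-quartile scaling gave 223 higher and 190 lower, and removal of length and GC trends 136 higher and 146 lower. Equal replicate numbers showed little shared deviation over genes (Pearson's r 0.036 over 11107 genes), which cannot decide whether they pair the libraries. The share of mitochondrially encoded genes was higher in replicate 2 of both groups (0.31% and 0.43% with PBS, 0.37% and 0.51% with nanoparticles). The replicate block left the member count at 1. All 14 alternatives reuse the libraries on which TXNRD1 was selected, so how often it passed is a description. GSR was the 1 pathway gene called with the block and the 1 called with a mean of at least 50 counts. Directions close to 0 turned as follows. TXNRD2 was at 0.0022 without a filter, 0.011 without the length trend, 0.037 without length and GC trends, 0.023 without PBS replicate 1 and 0.010 without nanoparticle replicate 2. PRDX3 was at 0.011, PRDX4 at 0.0027 and PRDX5 at 0.0014 without the length trend, PRDX5 at 0.017 without length and GC trends, and PRDX1 at -0.0077 without PBS replicate 2. With each library left out, TXNRD2 ran from -0.040 to 0.023 and PRDX1 from -0.0077 to 0.047. The cause was not tested. With the union of exons as length the levels in CPM per kilobase were 427 for PRDX1, 186 for TXN, 125 for PRDX6, 99.0 for TXNRD1, 57.5 for TXN2, 52.1 for PRDX3, 7.23 for TXNRD2 and 3.01 for TXNRD3. SRXN1 ran from 0.33 to 0.73 over the fits with a library left out. The 14 to 28 counts of SRXN1 per library limit the precision of its fold change.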
